A study of Mus musculus with 7 samples.

Results

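The carbonic anhydrase genes of the mouse uterus were followed here across the estrous cycle. The 10 members, Car2, Car3, Car4, Car5b, Car8, Car9, Car11, Car12, Car13 and Car14, were taken by symbol from the 31274 rows of the RNA-seq table. All 10 were found. Whole uteri of intact, untreated CD-1 mice (2 months old, from an outbred stock) had been taken at diestrus (4 libraries) or at estrus (3 libraries). Strain, age, tissue and the absence of treatment were the same in both groups. Estrus follows the preovulatory rise of estradiol, and in diestrus progesterone from the corpora lutea prevails. Expression was given as FPKM, which scales fragments by transcript length and by the mapped fragments of the library. Comparisons between genes rest on lengths from an annotation that is not given. Comparisons between libraries can be shifted where the make-up of their RNA differs. Whether the libraries are separate animals is not stated in the labels, and the p-values therefore rest on a spread between libraries that may be technical.

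Carbonic anhydrases are zinc enzymes that interconvert carbon dioxide and water with bicarbonate and a proton. They work beside bicarbonate transporters, chloride channels and proton pumps, and in secretory epithelia they supply the bicarbonate and protons that set the pH and ion content of the secreted fluid. The mammalian family is divided by location into cytosolic, mitochondrial and membrane-bound or secreted isozymes, and it includes related proteins that lack zinc-binding residues and do not hydrate carbon dioxide.

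At estrus Car2, Car5b and Car9 rose by 6.11- to 7.12-fold in mean FPKM, and Car11 fell, with a mean 4.13-fold higher in diestrus than in estrus. Car3, Car4, Car12, Car13 and Car14 did not pass the test, and Car8 was too low to be tested. The test was limma on log2(FPKM + 1), run on every gene that reached 1 FPKM in 3 or more of the 7 libraries, and a gene was called at a Benjamini-Hochberg adjusted p under 0.05. Of the 9 tested members, 3 were called higher and 1 lower, while 17.2% of all 13920 tested genes were called higher and 14.0% lower. The groups did not overlap at 4 of the 9, 3 with estrus higher and 1 with estrus lower, against 40.6% of all tested genes (21.9% higher and 18.7% lower). The median log2 fold change of the 9 was 0.82, beside 0.05 for all tested genes. In either direction 4 of the 9 were called, beside 31.1% of all tested genes, and no difference from the whole table is read from so few members.

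**Figure D1:**
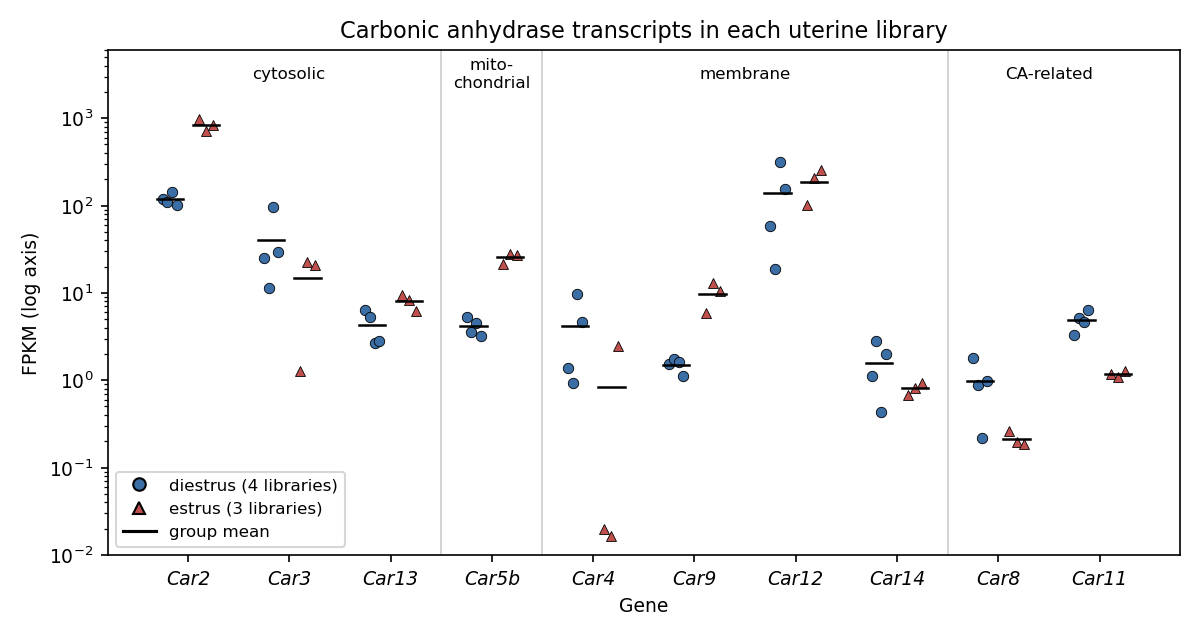
FPKM of each of the 10 carbonic anhydrases (log axis) in the 4 diestrus libraries (circles) and 3 estrus libraries (triangles), with group means as bars and genes ordered by where the protein is found. Car2, Car5b and Car9 lie wholly higher at estrus and Car11 wholly lower, and Car4 spans from 0.0164 to 9.66 FPKM.

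Among the cytosolic isozymes, Car2 encodes the fast enzyme of red blood cells, kidney and many secretory epithelia. It lies on GRCm38 chromosome 3, 14886273 to 14900770, plus strand, and is protein-coding. Car2 stood at 118.2, 111.1, 144.0 and 100.5 FPKM in diestrus replicates 1 to 4 and at 967.6, 717.4 and 844.1 FPKM in estrus replicates 1 to 3. The lowest estrus library was far above the highest diestrus library, and the members of each group differed by at most 1.43-fold. The means were 118.4 ± 18.5 (SD, n = 4) and 843.0 ± 125 FPKM (SD, n = 3), a 7.12-fold ratio. Its log2 fold change was 2.82 (SE 0.18, limma adjusted p = 0.00050), which ranked 9 by p-value among all tested genes. An exact permutation test over the 7 libraries gave a two-sided p of 0.0286, the smallest it can give.

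Whole tissue mixes cell types, so a larger share of a cell type in the tissue and more RNA per cell cannot be told apart here. Of 15 epithelial markers, of which Krt7 was the highest on average, 10 were called higher and 0 lower at estrus (9 higher without estrus replicate 2), with a median log2 fold change of 1.30. Of all tested genes 17.2% were called higher and 14.0% lower. Their summed level ran from 1089 to 1544 FPKM in diestrus and from 3603 to 4128 in estrus, and none of the 15 was near 0. Of 10 red blood cell markers listed, 8 were in the table and 4 were tested, with 0 called by limma (0 also at an unadjusted p under 0.05). Their sum was 236.9 to 1139 FPKM in diestrus and 359.0 to 1010 in estrus, mostly from globin transcripts such as Hba-a2, and the red cell genes Slc4a1, Epb4.2 and Ermap were under 0.2 FPKM in every library. The part of either cell type in the Car2 result was not tested.

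The tested genes whose pattern over the 7 libraries was most like that of Car2, by Pearson's r of log2(FPKM + 1), were Tmem141 (0.999), Zcchc2 (0.996), Wwc2 (0.994), Nppc (0.993) and Six4 (0.992). These values describe likeness across libraries that share the contrast of the 2 phases, and carry no test. Nppc, the precursor of C-type natriuretic peptide, was at 0.88, 0.62, 0.81 and 0.27 FPKM in diestrus and at 16.4, 16.3 and 13.8 FPKM in estrus.

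Car13 encodes a cytosolic isozyme (chromosome 3, 14641727 to 14663002, plus strand). It stood at 6.36, 5.27, 2.64 and 2.83 FPKM in diestrus replicates 1 to 4 and at 9.48, 8.35 and 6.18 FPKM in estrus replicates 1 to 3. The groups overlapped only where diestrus replicate 1 exceeded estrus replicate 3. The log2 fold change of 0.82 (SE 0.29) did not pass (limma adjusted p = 0.0616). Without diestrus replicate 1 it was 1.00 with an adjusted p of 0.0237. Removal of any other single library gave adjusted p values of 0.0666 to 0.173, none of which passed. Car13 passed with library weights too (log2 1.07, adjusted p = 0.00090). That setting called 9367 of all 13920 tested genes, against 4336 in the main fit, and its weights did not converge fully.

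Car3 encodes a cytosolic isozyme of low activity that is abundant in fat and in slow skeletal muscle (chromosome 3, 14863512 to 14872523, plus strand). Its values were 24.7, 11.5, 95.0 and 29.0 FPKM in diestrus replicates 1 to 4 and 1.28, 22.5 and 20.7 FPKM in estrus replicates 1 to 3. Diestrus replicate 3 stood highest and estrus replicate 1 lowest, and the remaining 5 libraries lay within 11.5 to 29.0 FPKM. The log2 fold change was -1.56 (SE 0.95, limma adjusted p = 0.234), and -0.46 without estrus replicate 1.

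As a sum, adipocyte markers moved with Car3 from library to library, while single markers did not all keep its order. The summed level of 10 adipocyte markers was 96.8, 61.5, 336.5 and 143.5 FPKM in diestrus and 17.9, 87.4 and 82.1 FPKM in estrus, which puts the 7 libraries in the same order as Car3 does. All 10 markers were lowest in estrus replicate 1 and 9 of 10 were highest in diestrus replicate 3. Plin4 was highest in diestrus replicate 2, at 7.44 FPKM. Fabp4, a fatty acid binding protein and the highest of them on average, was at 91.8 FPKM in diestrus replicate 3 and at 6.90 FPKM in estrus replicate 1. Adipoq, the adipocyte hormone adiponectin, was at 18.3 FPKM in diestrus replicate 3 and at 0.30 FPKM in estrus replicate 1. In diestrus replicate 4 Adipoq was at 4.31 FPKM, below estrus replicates 2 and 3 (5.28 and 5.67 FPKM), unlike Car3. None of the 10 was called by limma between the groups (0 also at an unadjusted p under 0.05, median log2 fold change -0.89, and 1 was called lower without diestrus replicate 1 or 2), and their part in the Car3 values was not tested. Of the 10 skeletal muscle markers, the myosin genes Myh1, Myh2, Myh4 and Myh7 were under 0.2 FPKM in every library. Of the 5 markers tested, 0 were called higher and 1 lower, beside 17.2% higher and 14.0% lower of all tested genes. The sum of all 10 was 77.4 to 190.1 FPKM in diestrus and 98.2 to 143.8 in estrus, most of it from Acta1.

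**Figure D2:**
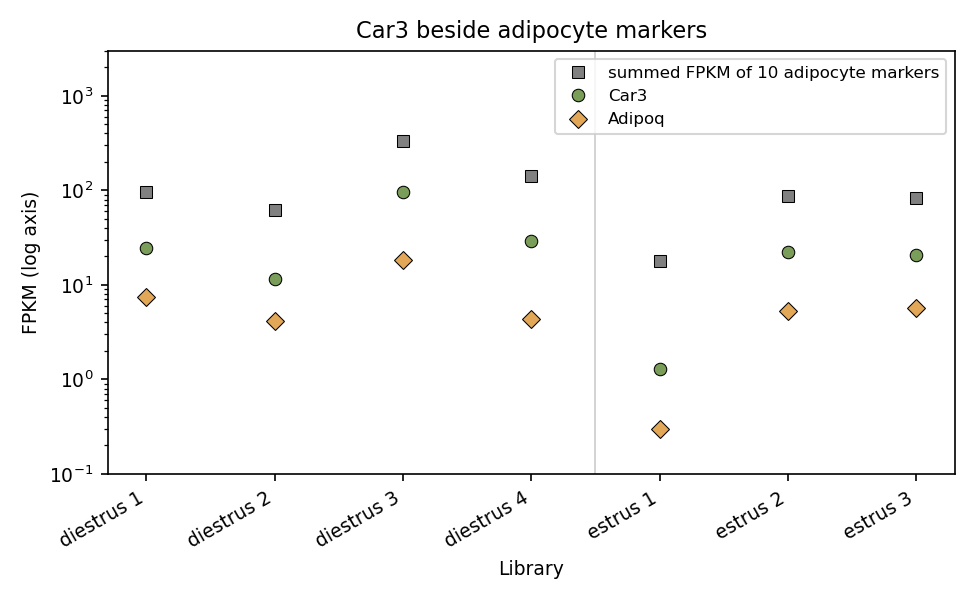
FPKM (log axis) of Car3, of Adipoq and of the sum of 10 adipocyte markers in each library, with diestrus on the left and estrus on the right of the line. Car3 and the marker sum rank the 7 libraries alike, from 1.28 and 17.9 FPKM in estrus replicate 1 to 95.0 and 336.5 FPKM in diestrus replicate 3.

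Car13, Car1, Car3 and Car2 are neighbours in a stretch of 259.0 kb on chromosome 3 (14641727 to 14900770), with Car3 ending 13.7 kb before Car2 starts on the same strand. Their levels differed widely across that stretch. Car1, the other red cell isozyme, was listed at 0 in all libraries except diestrus replicate 3 (0.063 FPKM), while Car2 was among the genes with the smallest p-values and Car3 did not pass.

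Car5b encodes a mitochondrial isozyme and is X-linked (chromosome X, 163976822 to 164027997, minus strand). It was at 5.36, 3.58, 4.48 and 3.22 FPKM in diestrus replicates 1 to 4 and at 21.3, 27.8 and 27.2 FPKM in estrus replicates 1 to 3. The lowest estrus library was far above the highest diestrus library, and each group was tight, with at most 1.66-fold between its libraries. Means were 4.16 ± 0.96 (SD, n = 4) and 25.4 ± 3.61 FPKM (SD, n = 3), a 6.11-fold ratio. On the log2 scale the difference was 2.36 (SE 0.18, limma adjusted p = 0.00079). The exact permutation p was 0.0286. Car5a, the mitochondrial isozyme of liver, did not exceed 0.077 FPKM in any library.

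Among the membrane isozymes, Car9 encodes a transmembrane enzyme with its active site outside the cell and is a classical target of hypoxia-inducible factors (chromosome 4, 43506966 to 43513729, plus strand). Car9 was at 1.53, 1.74, 1.63 and 1.13 FPKM in diestrus replicates 1 to 4 and at 5.92, 12.9 and 10.5 FPKM in estrus replicates 1 to 3. All estrus libraries were above all diestrus libraries, and estrus replicate 1 was the lowest of its group. Means were 1.51 ± 0.26 (SD, n = 4) and 9.77 ± 3.55 FPKM (SD, n = 3), a 6.48-fold ratio, and the difference of log2 values, 2.05 (SE 0.24, limma adjusted p = 0.00208), is smaller than this ratio because 1 FPKM was added before the logarithm. With 5 FPKM added it was 1.15, and with 0.1 FPKM added 2.56. An annotated antisense gene, Gm12454, overlaps 1782 bases of Car9, and since it is not given whether fragments were counted by strand, its reads cannot be told apart from those of Car9.

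The promoters of Car9 and Car5b are shown because both genes were called higher and the reference held their sequences. They are RefSeq sequences of the GRCm38.p6 assembly, from 250 bases before to 50 bases after the RefSeq gene start. They lie at chr4:43506776-43507075 (plus strand) and chrX:164027961-164028260 (minus strand). Capitals mark matches to ACGTG, 1 form of the core of the element bound by hypoxia-inducible factors, and to GGTCA, the repeat unit of the estrogen receptor element. The other form of that core, GCGTG, was not searched and is not in capitals.
Car9: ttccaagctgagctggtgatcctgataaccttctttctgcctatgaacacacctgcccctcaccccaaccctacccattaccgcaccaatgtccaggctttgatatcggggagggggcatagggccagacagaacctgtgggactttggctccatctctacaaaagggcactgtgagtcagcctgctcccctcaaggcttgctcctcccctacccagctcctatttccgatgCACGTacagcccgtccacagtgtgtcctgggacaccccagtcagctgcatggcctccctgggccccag
Car5b: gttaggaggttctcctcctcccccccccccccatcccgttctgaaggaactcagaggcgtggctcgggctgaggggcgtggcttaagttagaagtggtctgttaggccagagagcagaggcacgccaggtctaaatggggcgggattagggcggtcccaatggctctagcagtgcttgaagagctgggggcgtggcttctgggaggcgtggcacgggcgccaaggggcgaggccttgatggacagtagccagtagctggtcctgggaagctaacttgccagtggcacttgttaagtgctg
Both strands were searched, and the motifs do not overlap each other. The Car9 promoter held 1 match to ACGTG, read on the opposite strand and beginning 18 bases before the RefSeq start, and no GGTCA. RefSeq starts Car9 at 43507026, 60 bases downstream of the GENCODE start given above, so by GENCODE the match begins 42 bases after the start. The Car5b promoter held neither ACGTG nor GGTCA, which says only that these letters are not in this window. GCGTG does occur in it, but was not counted in any promoter. Across all 32851 promoters of this length, 19.6% held ACGTG and 40.5% GGTCA. Of the 6 members with a promoter in the reference (Car4, Car5b, Car9, Car11, Car12 and Car14), 3 held ACGTG (Car4, Car9 and Car14), 3 held GGTCA (Car4, Car11 and Car14, where Car11 has 2 windows and only 1 of them holds it), and 0 held the palindromic estrogen receptor element, in which 2 GGTCA units face each other 3 bases apart, found in 0.07% of all promoters. Counted by window, as the shares of all promoters are, 3 of 7 held each motif. The sequences of Car2, Car3, Car8 and Car13 were not used here.

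Of 24 tested genes of the hypoxia pathway, which are targets of these factors and some of the factors and their regulators (Hif1a, Epas1, Arnt and Vhl), 9 were called higher, 2 lower and 13 did not pass, beside 17.2% higher and 14.0% lower of all tested genes. Leaving out 1 library at a time gave 6 to 9 higher (6 without estrus replicate 2) and 0 to 2 lower (0 without diestrus replicate 3, estrus replicate 2 or estrus replicate 3). Their median log2 fold change was 0.40, beside 0.05 for all tested genes. Egln3, a prolyl hydroxylase that marks these factors for degradation, was at 4.48, 5.40, 4.50 and 4.36 FPKM in diestrus and at 27.3, 52.0 and 33.9 FPKM in estrus. Both Egln3 and Car9 were highest in estrus replicate 2 and lowest of the estrus libraries in replicate 1. Ddit4, an inhibitor of mTOR signalling, and the glycolytic enzyme Eno1 also rose (log2 2.02 and 1.52, limma adjusted p = 0.00151 and 0.00250). The targets called lower were Adm, which encodes the vasodilator peptide adrenomedullin, and P4ha2, a collagen prolyl hydroxylase (log2 -0.75 and -0.66, adjusted p = 0.0372 and 0.0282). Other targets with negative values did not pass. Among them were Vegfa, the vascular growth factor (log2 -0.17, adjusted p = 0.629), and Ndrg1 (log2 -0.74, adjusted p = 0.390). Pfkfb3 did not pass either (log2 -0.85, limma adjusted p = 0.0667), though it was lower in every estrus library than in any diestrus library.

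Car12 encodes a transmembrane isozyme of epithelia that is estrogen-responsive in breast cancer cells (chromosome 9, 66713686 to 66766845, plus strand). It was at 58.2, 18.9, 318.3 and 155.7 FPKM in diestrus replicates 1 to 4 and at 102.3, 205.6 and 256.3 FPKM in estrus replicates 1 to 3. The highest and the lowest value of all 7 libraries both belonged to diestrus, 16.9-fold apart, while the estrus libraries were within 2.51-fold of each other. The difference between the groups (log2 1.01, SE 0.88, limma adjusted p = 0.396) was within the spread of the diestrus libraries. Leaving out diestrus replicate 2 gave 0.30 (adjusted p = 0.746), and leaving out diestrus replicate 3 gave 1.63 (adjusted p = 0.148).

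Car4 encodes a membrane-anchored isozyme of capillary endothelium and some epithelia (chromosome 11, 84957786 to 84966044, plus strand). It was at 1.39, 0.92, 9.66 and 4.60 FPKM in diestrus replicates 1 to 4 and at 0.020, 0.016 and 2.44 FPKM in estrus replicates 1 to 3. Estrus replicate 3 lay among the diestrus libraries, while the other estrus libraries were almost at 0. The 2 lowest values stand in the ratio 1.21, which is also the ratio of what 1 fragment is worth in those libraries, as it is for equal numbers of fragments. The log2 fold change of -1.41 (SE 0.68) did not pass (limma adjusted p = 0.146). It was -2.0 without estrus replicate 3 (adjusted p = 0.0697) and -0.95 without diestrus replicate 3 (adjusted p = 0.269). The size depends on the amount added, from -3.14 with 0.1 FPKM to -0.58 with 5 FPKM, and neither passed. It passed with library weights (log2 -2.32, adjusted p = 0.00207), a setting that called 9367 of all tested genes and did not converge fully.

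Of 10 endothelial markers, 8 were called lower and 0 higher, beside 14.0% lower and 17.2% higher of all tested genes. Their median log2 fold change was -1.17. Summed levels were 276.4 to 633.3 FPKM in diestrus and 182.5 to 231.6 in estrus, and no marker was at 0. With 1 library left out, 10 were called lower (diestrus replicate 1 removed), 5 (diestrus replicate 3), 4 (estrus replicate 1) or 0 (estrus replicate 2). The marker sum was highest in diestrus replicate 4, and Car4 in diestrus replicate 3. The part of endothelium in the Car4 values was not tested.

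Car14 encodes a transmembrane isozyme (chromosome 3, 95897768 to 95904691, minus strand) and was low throughout, at 1.13, 2.84, 0.43 and 1.97 FPKM in diestrus replicates 1 to 4 and 0.68, 0.81 and 0.92 FPKM in estrus replicates 1 to 3. The estrus libraries fell inside the diestrus range (log2 -0.43, SE 0.32, limma adjusted p = 0.323). Its annotated end overlaps 521 bases of Aph1a, a gamma-secretase subunit gene on the other strand. Aph1a stood at 14.0 to 14.7 FPKM in diestrus and 19.4 to 21.4 FPKM in estrus (log2 0.46, limma adjusted p = 0.0136, and 0.0632 without estrus replicate 2), so the low Car14 values are uncertain where reads were not separated by strand.

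Car11 and Car8 encode carbonic anhydrase-related proteins, which keep the fold of the family without the enzyme activity. Car11 (chromosome 7, 45699843 to 45704682, plus strand) was at 3.27, 5.18, 4.67 and 6.41 FPKM in diestrus replicates 1 to 4 and at 1.16, 1.10 and 1.28 FPKM in estrus replicates 1 to 3. Every estrus library was below every diestrus library, and the estrus libraries differed by no more than 1.16-fold. Means were 4.88 ± 1.30 (SD, n = 4) and 1.18 ± 0.091 FPKM (SD, n = 3), and the log2 values differed by -1.40 (SE 0.19, limma adjusted p = 0.00322), with an exact permutation p of 0.0286. The size on the log2 scale depends on the amount added, from -1.92 with 0.1 FPKM to -0.67 with 5 FPKM.

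The gene next to Car11, Dbp, a circadian transcription factor gene named here after its values were seen, begins 405 bases after Car11 ends on the same strand. Dbp was at 39.3, 56.1, 17.8 and 47.0 FPKM in diestrus and at 6.33, 12.0 and 18.4 FPKM in estrus (log2 -1.63, SE 0.44, limma adjusted p = 0.0291, above 0.05 without diestrus replicates 2 or 4 or estrus replicates 1 or 2, at 0.0633 to 0.0907). Its groups overlapped, unlike those of Car11. Whether fragments from the end of one were counted for the other was not tested.

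Car8 (chromosome 4, 8143362 to 8239041, minus strand), best known from Purkinje cells of the cerebellum, was at 1.78, 0.88, 0.22 and 0.99 FPKM in diestrus replicates 1 to 4 and at 0.26, 0.20 and 0.19 FPKM in estrus replicates 1 to 3. It reached 1 FPKM in 1 library and was not tested by the main rule. The groups overlapped through diestrus replicate 3, and the exact permutation p was 0.0857. With no filter on low values the log2 fold change was -0.64 (limma adjusted p = 0.121).

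**Figure D3:**
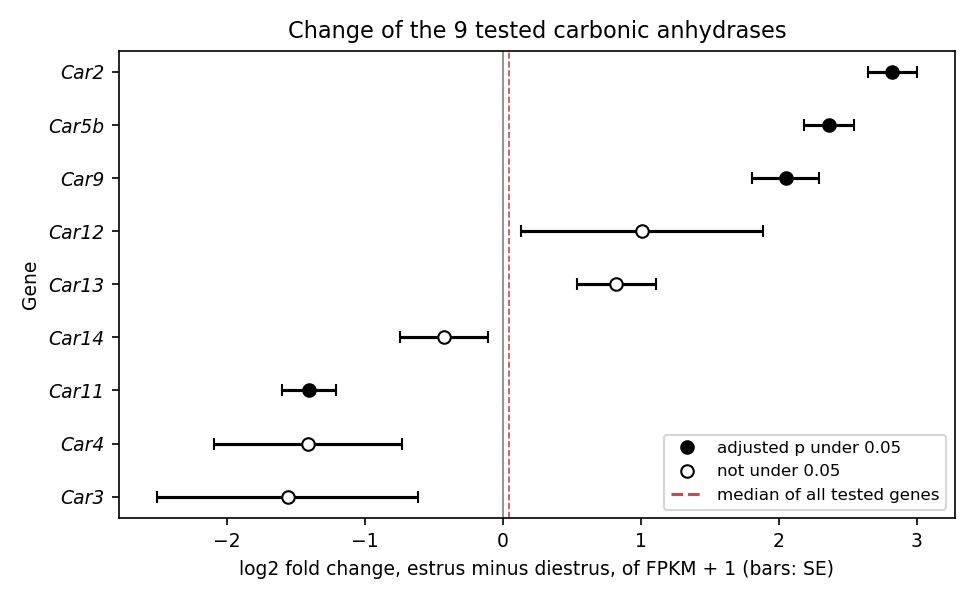
Log2 fold change, estrus minus diestrus, of FPKM + 1 for the 9 tested members, with standard errors as bars and filled points for an adjusted p under 0.05. Car2 (2.82), Car5b (2.36) and Car9 (2.05) lie on the right and Car11 (-1.40) on the left with short bars, while Car12, Car4 and Car3 have the longest bars.

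Summed over the 10 members, carbonic anhydrase transcripts were at 222.0, 161.8, 581.1 and 306.3 FPKM in diestrus replicates 1 to 4 and at 1110, 996.7 and 1170 FPKM in estrus replicates 1 to 3. Car2 made up 24.8% to 68.6% of this sum in diestrus and 72.0% to 87.2% in estrus. Without Car2 the sums overlapped, at 50.8 to 437.1 FPKM in diestrus and 142.4 to 325.7 in estrus. The membrane isozymes held 15.1% to 56.8% of the sum in diestrus and 9.81% to 23.1% in estrus, most of it Car12 (11.7% to 54.8% and 9.22% to 21.9% of the sum). These are shares of a sum that includes Car2. The membrane isozymes' own levels overlapped, at 24.4 to 330.0 FPKM in diestrus and 108.9 to 270.2 FPKM in estrus. The share of the related proteins Car8 and Car11 went from 0.84% to 3.75% in diestrus to 0.13% in each estrus library.

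The order of the levels also changed. In diestrus Car12 (mean 137.8 FPKM) and Car2 (118.4) led and overlapped, with Car12 above Car2 in replicates 3 and 4 and below it in replicates 1 and 2. Car3 (40.1) came next, apart from Car2 above and Car11 below, and each neighbouring pair among Car11, Car13, Car5b, Car4, Car14, Car9 and Car8, from 4.88 down to 0.97 FPKM, overlapped. In estrus Car2 (843.0) was apart from Car12 (188.1) and Car12 from Car5b (25.4), and the ratio of Car2 to Car12 was 9.46, 3.49 and 3.29 in replicates 1 to 3. Car5b, Car3 (14.8), Car9 (9.77) and Car13 (8.0) followed with overlapping neighbours. Then came Car11 (1.18), Car4 (0.82) and Car14 (0.80), where Car4 overlapped both others but Car11 stayed above Car14. Car8 had a mean of 0.21 FPKM. The place of Car4 rests on estrus replicate 3, since in replicates 1 and 2 Car4 (0.020 and 0.016 FPKM) was below Car8 (0.26 and 0.20).

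**Figure D4:**
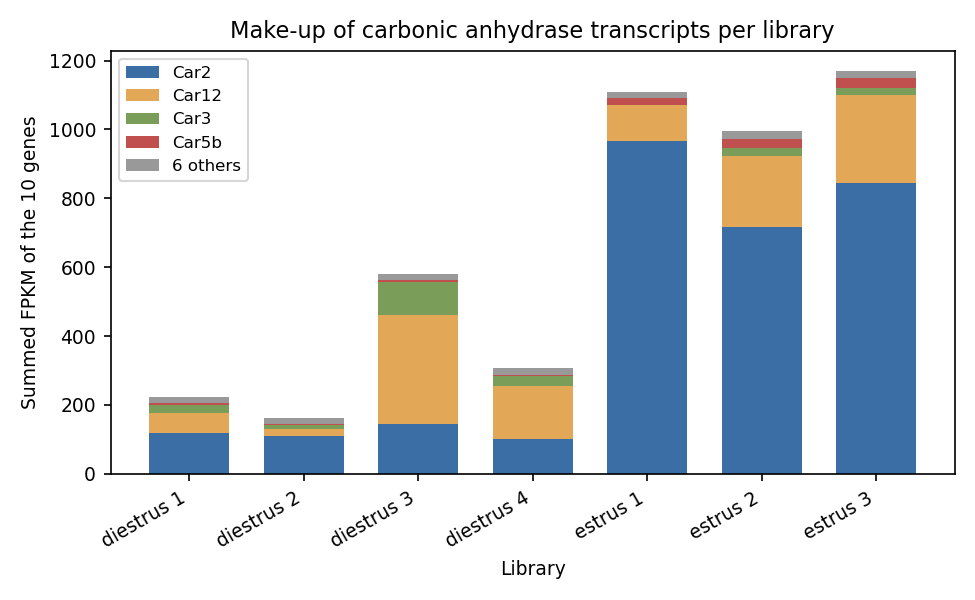
Stacked bars of the summed FPKM of the 10 members in each library, with Car2, Car12, Car3, Car5b and the 6 others in separate colours. The estrus bars reach 996.7 to 1170 FPKM and are mostly Car2, and the tallest diestrus bar, replicate 3 at 581.1 FPKM, is mostly Car12.

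The 6 other carbonic anhydrase rows of the table, Car1, Car5a, Car6, Car7, Car10 and Car15, were below 1 FPKM in every library and were not tested. Car7, a cytosolic isozyme best known from neurons, was at 0.50, 0.92, 0.82 and 0.87 FPKM in diestrus and 0.20, 0.32 and 0.17 FPKM in estrus, without overlap (exact permutation p = 0.0571). With no filter its log2 fold change was -0.53 (limma adjusted p = 0.0153). Car15, a membrane-anchored isozyme, ran from 0.36 to 0.70 FPKM in diestrus and from 0.40 to 0.61 FPKM in estrus.

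Among 25 transporters of bicarbonate, chloride, protons and lactate and their partners, 18 were tested, 6 were called higher and 0 lower at estrus by limma, and 12 did not pass. The shares of all tested genes were 17.2% higher and 14.0% lower. At an unadjusted p under 0.05 there were 10 higher and 2 lower. The 2 lower were Slc4a8 and Slc26a6, and Slc26a6 was lower in every estrus library than in any diestrus library (means 2.84 and 1.74 FPKM in diestrus and estrus). Their median log2 fold change was 0.55. Cftr, the chloride and bicarbonate channel, was at 6.70, 8.41, 2.51 and 1.36 FPKM in diestrus and at 37.9, 51.3 and 50.9 FPKM in estrus, without overlap (log2 3.25, SE 0.47, limma adjusted p = 0.00356). Slc26a9, a chloride transporter of epithelia, rose from 0.79 ± 0.42 (SD, n = 4) to 4.40 ± 1.12 FPKM (SD, n = 3), and Slc16a1, which carries lactate with a proton, from 16.9 ± 4.76 to 69.3 ± 8.07 FPKM. Slc16a3, Slc4a11 and the scaffold gene Slc9a3r1 were the others called. The number called higher was 3 without estrus replicate 2, and 1 gene was called lower without diestrus replicate 3 or 4. The bicarbonate cotransporter Slc4a4 (log2 -0.32, adjusted p = 0.421) and the anion exchanger Slc4a2 (log2 0.38, adjusted p = 0.0843) did not pass.

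Proton pump genes were listed together with the proton channel Hvcn1. Of 13, 9 were tested, 3 were called higher and 2 lower, with a median log2 fold change of 0.05. Over all tested genes 17.2% were called higher and 14.0% lower. The 3 called higher, Atp6v1a, Atp6v0a1 and Atp6v1b2, were all vacuolar pump subunits. Those called lower were the channel Hvcn1 and another pump gene, Atp12a (log2 -1.64, limma adjusted p = 0.0281). Atp6v1a and Atp6v0a1, subunits of the vacuolar proton pump, had log2 fold changes of 1.05 and 0.82, and the proton channel Hvcn1 of -1.12 (limma adjusted p = 0.0226, 0.0168 and 0.0155). Without estrus replicate 2 none of the listed genes was called. The adjusted p values of Atp6v1a, Atp6v0a1 and Hvcn1 were then 0.0871, 0.0818 and 0.0665. Atp6v1a also missed the threshold without diestrus replicate 4 or estrus replicate 3 (0.0574 and 0.0649), and Hvcn1 without estrus replicate 1 (0.0537). Atp6v0d2, another pump subunit, named after its values were seen, was at 0.97, 4.53, 136.6 and 80.4 FPKM in diestrus and at 0.63, 1.02 and 0.89 FPKM in estrus, and was, like Car12, higher in diestrus replicates 3 and 4 than in replicates 1 and 2 (adjusted p = 0.106).

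**Figure D5:**
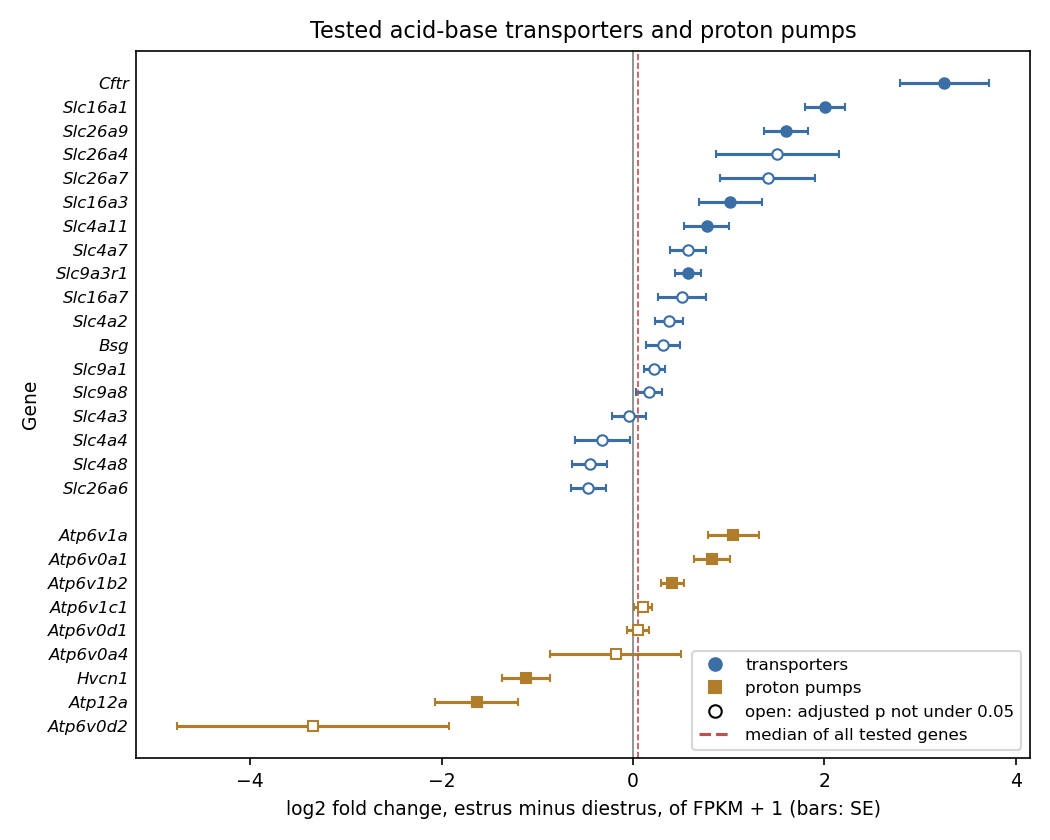
Log2 fold change, estrus minus diestrus, of FPKM + 1 for the 18 tested transporters (circles) and 9 tested genes of the proton pump list (squares, with the channel Hvcn1 among them), with standard errors as bars and filled symbols for an adjusted p under 0.05. Cftr (3.25) lies farthest right, and Atp6v0d2 has the longest bar.

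Across the whole table, relative depth read from the spacing of low values ran from 0.92 to 1.35 times that of estrus replicate 1. On the first principal component (60.2% of the variance) scores were 47.0 to 59.9 for estrus and -11.3 to -61.9 for diestrus, with diestrus replicate 1 nearest to estrus. Of the called members, Car5b was highest and Car11 lowest of the diestrus group in that replicate, but Car2 was highest in replicate 3 and Car9 in replicate 2. The defining markers of uterine tissue were present: all 12 of stroma, 10 of smooth muscle and 8 of macrophages passed the filter, as did those of epithelium and endothelium. The shares to set beside the counts of these lists are 17.2% higher and 14.0% lower of all tested genes. Stroma had 0 called higher and 4 lower (3 to 4 lower and 0 to 1 higher, the latter without diestrus replicate 1, when single libraries were removed). Smooth muscle had 1 higher and 1 lower, and both were 0 without diestrus replicates 2 or 3 or estrus replicates 2 or 3, while without diestrus replicate 4 or estrus replicate 1 only the number lower was 0, and without diestrus replicate 1 it was 2. Macrophages had 1 higher and 4 lower, and the number lower was 0 without estrus replicate 2, 1 without diestrus replicate 4 or estrus replicates 1 or 3, and 2 without diestrus replicates 2 or 3.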

How the data were processed

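Libraries were prepared from column-purified, DNase-treated uterine RNA with a TruSeq RNA kit, per the labels' protocols. The authors deposited FPKM, 1 column for each library. The submitters' processing notes name TopHat2 2.0.4 and mm10 without a role. For the FPKM program, its annotation and its use of strand, the answer is not given in the sources used here. Each column was matched through the sample description, leaving 0 columns over, and groups (4 diestrus, 3 estrus) follow the titles.

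Rows reaching 1 FPKM in 3 or more libraries (13920 of 31274) were tested with limma 3.58.1 (R 4.3.3) on log2(FPKM + 1), as 2 groups with trended empirical Bayes moderation, and two-sided p-values were adjusted by the Benjamini-Hochberg method over all of them (threshold 0.05). This scale understates changes of low genes. Single members were also tested by exact permutation. FPKM records no absolute depth. Relative depth was read from the commonest ratio between libraries of values under 0.3 FPKM.

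The members, gene lists and rules were chosen with earlier results of these data known. Other named genes were up to 3 called genes with the smallest p-value per pathway list (bicarbonate and chloride transporters, proton pumps, hypoxia targets), the marker with the highest mean of each cell type list, genes overlapping a member, the remaining carbonic anhydrases and the 5 genes most correlated with Car2. Named outside this rule, after their values were seen, were Adipoq, red cell and muscle markers under 0.2 FPKM, Adm, P4ha2, Vegfa, Ndrg1 and the hypoxia regulators, Slc16a3, Slc4a11, Slc9a3r1, Slc4a4, Slc4a2, Atp6v0d2 and Dbp. So were Ovol1, Plin4, Pfkfb3, Slc4a8, Slc26a6, Atp6v1b2 and Atp12a. Positions are from GENCODE M21 (GRCm38, also called mm10). The alternatives were other pseudocounts (0.1 and 5), other filters (none, or a mean of 5 FPKM), scaling by median ratios or quantiles, moderation with no trend or made robust, library weights, removal of rows named by accessions or small RNAs, a block for the replicate number, and removal of single libraries. The fit was tested on simulated data. Figures were drawn with matplotlib 3.10.9.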

Additional observations from a re-analysis of the deposited data

Results flagged for a closer look

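Among the 16 carbonic anhydrase rows, 1 had a diestrus library far from the other 3 by Dixon's criterion for 4 samples: Car1, at 0.0627 FPKM in diestrus replicate 3 and listed at 0 in the other diestrus libraries and in all estrus libraries. With 3 values tied at 0, any value above 0 meets the criterion whatever its size, so the rate of about 1 in 20 groups that chance gives does not hold here, and the mark says no more than that Car1 was listed above 0 in 1 library.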

How the results depend on the processing

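Car2, Car5b, Car9 and Car11 kept their direction and stayed called in every setting in which they were tested (18 settings each, 17 for Car11, which a mean of at least 5 FPKM left out). Log2 fold changes ran from 2.61 to 2.93, 1.73 to 2.60, 1.15 to 2.56 and -1.92 to -0.67, with adjusted p values up to 0.00717, 0.00941, 0.0130 and 0.0224. No tested member changed direction. The number of members called higher was 3 to 4 and called lower 1 when single libraries were left out. Members called lower were 0 with a mean of at least 5 FPKM, 2 with library weights (Car4 and Car11) and 2 with the replicate block. The number of all genes called was 9367 with library weights, whose estimation did not converge fully, and 1433 to 5311 without single libraries (1433 without estrus replicate 2, 2559 without diestrus replicate 4, 2633 without estrus replicate 1). Transporters called higher were 3 with a mean of at least 5 FPKM, 12 with library weights and 3 to 7 without single libraries, and those called lower were 3 with library weights and 0 to 1 without single libraries. The cause of these moves was not tested. Dcn and Tagln, the highest stroma and smooth muscle markers, which did not pass, turned to 0.12 and 0.010 with the replicate block and without diestrus replicate 4. Without single libraries Dcn ran from -0.32 to 0.12 and Tagln from -0.60 to 0.010.

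Libraries share replicate numbers across groups, but deviations from the group means correlated at 0.198, 0.0243 and 0.169 for numbers 1 to 3, so the numbers were not taken to pair them. The replicate block gave 2281 calls over all genes, and diestrus replicate 1 correlated as well with estrus replicate 2 (0.206) as with its own number. With the replicate block the adjusted p was 0.0240 for Car4, 0.0741 for Aph1a and 0.0900 for Dbp, and macrophage markers called lower were 1. The files give no fragment counts, so no counting interval could be set on low values.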
